A study of Mus musculus with 6 samples.

Results

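The myotubularins are a family of proteins built around a phosphatase domain that removes the phosphate at the D-3 position of phosphatidylinositol 3-phosphate (PI3P) and of phosphatidylinositol 3,5-bisphosphate, lipids that mark endosomes and lysosomes and recruit proteins of membrane traffic and autophagy. Catalysis needs a signature loop with a cysteine that attacks the phosphate and an arginine that holds it. Some members have lost these residues and act as partners of active members, whose stability, location or activity they alter. In neutrophils, PI3P forms on phagosomes, where it is bound by a subunit of the NADPH oxidase.

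Of the 52636 genes listed for bone marrow neutrophils, 10 were taken by symbol as members of this family, namely Mtm1, Mtmr1, Mtmr2, Mtmr3, Mtmr4, Mtmr6, Mtmr9, Mtmr10, Mtmr12 and Mtmr14. The family was chosen by the TPM of Mtmr6, which was lower in all 3 knockout libraries than in WT, so the difference between the groups is given for its members as a description, without a test. Primary neutrophils came from C57BL/6N mice aged 10 weeks, 3 libraries labelled WT and 3 labelled LRP5-KO, the latter with genotype LRP5f/f/Lyz2Cre+, in which Cre recombinase from the Lyz2 locus, active in neutrophils, monocytes and macrophages, deletes floxed Lrp5. Whether the WT mice carried a floxed allele or Cre, and whether each library came from 1 mouse, is not given in the labels, so p-values measure the spread between these libraries only. Expression was deposited as TPM, a measure that is scaled by gene length and can be compared between genes. The read summary lists 249841492 to 340580330 reads per library as paired-end, whereas the study's methods state single-end sequencing, so whether these count reads or read pairs is not known, and TPM holds no counts and the counting error of a gene is unknown.

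Neutrophil identity and the targeted gene were checked first. All 13 defining neutrophil markers were above the filter, with a summed level of 410131 to 457815 TPM, whereas B cell, T and NK cell, erythroid, megakaryocyte and other granulocyte lists each summed to at most 132.5 TPM and the monocyte and macrophage list, which includes Ly6c2, to at most 723.7 TPM. Lrp5 itself was 1.12, 1.31 and 1.42 TPM in WT and 1.68, 1.77 and 2.07 TPM in the libraries labelled LRP5-KO, so the targeted transcript was not lower there. A level over the whole gene does not separate the floxed part from the rest, so it does not check the deletion. Lyz2, the locus of the Cre insertion, was 24797 to 26791 TPM in WT and 13360 to 14027 TPM in the libraries labelled LRP5-KO (log2 fold change −0.91, SE 0.055, limma adjusted p = 0.00351), lower in each library whose label names Lyz2Cre. Each direction below is taken from the labels. Reads of ribosomal RNA made up 1.20% and 1.30% of WT replicates 1 and 2, 3.30% of WT replicate 3 and 2.69% to 2.98% of the libraries labelled LRP5-KO, so WT replicate 3 stood apart from the other WT libraries on this measure.

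To see which members carry the catalytic residues, the bases that encode the signature loop were read from GENCODE M1 transcripts (NCBIM37, mm9) and aligned through their translations to the loop of Mtmr6. The window of 27 bases is shown 5′ to 3′ on the coding strand for every member, with the cysteine and arginine codons of the signature in capitals where present.
Mtmr6: cacTGTtccgatgggtgggacAGGacc
Mtm1: cacTGCagtgacggatgggacAGGacc
Mtmr1: cacTGCagtgatgggtgggatCGAaca
Mtmr2: cacTGCagtgatggatgggatCGCaca
Mtmr3: cacTGCtccgatggctgggatCGGact
Mtmr4: cacTGCtctgacggctgggacCGTaca
Mtmr14: cacTGTatctcaggctgggacCGGacc
Mtmr9: catgggacagaaggaactgattccaca
Mtmr10: caagaggaggaaggcagagacttgagt
Mtmr12: ttggaagagaatgcttctgatctctgc

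Both codons were present in 7 members, and neither was present in Mtmr9, Mtmr10 and Mtmr12, which are known as catalytically inactive members. The window of Mtmr6 lies in exon 9 of 14 at chr14:60912254-60912280 on the plus strand, within a gene that spans chr14:60884065-60921207 and overlaps no other annotated gene. That of Mtmr9, which encodes an inactive partner known to bind MTMR6, lies in exon 7 of 10 on the same chromosome at chr14:64148655-64148681 on the minus strand. Mtm1 (chrX:68552809-68552835, plus strand) and Mtmr1 (chrX:68654969-68654995, plus strand) are neighbours on the X chromosome, and the windows of Mtmr3 (chr11:4392779-4392805, minus strand) and Mtmr4 (chr11:87417601-87417627, plus strand) lie on the same autosome. Mtmr2 has its window at chr9:13604386-13604412 and Mtmr14 at chr6:113215984-113216010, both on the plus strand. In Mtmr10 (chr7:71466116-71471560, plus strand) and Mtmr12 (chr15:12191663-12193502, plus strand) an intron splits the aligned window. Over aligned positions of the translations, MTMR6 shared 38.6% identity with MTMR2, 34.9% with MTMR9 and 18.6% with MTMR14. Mtmr7, the gene whose translation was closest to that of Mtmr6 (59.5%), was listed at 0 in all 6 libraries. A gene on the other strand overlaps Mtmr3, Mtmr10 and Mtmr14 in this annotation, and the strand setting of the authors' quantification is not given in the sources used here, so reads of these pairs may not have been separated.

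Among the members with both catalytic codons, mean levels in WT ran from 6.41 to 131 TPM. Mtmr6 was the most abundant in WT neutrophils, at 131 ± 13.3 TPM (SD, n = 3), a level exceeded by 751 of the 9775 genes tested, those averaging 1 TPM or more across the 6 libraries. Mtmr3, which carries a lipid-binding FYVE domain and restrains autophagy by removing PI3P, followed at 98.2 ± 10.5 TPM (SD, n = 3). Mtmr14, also called Jumpy and likewise known for limiting autophagy, stood at 26.98 ± 3.93 TPM (SD, n = 3). The ranges of these 3 genes over the WT libraries did not overlap one another. Mtmr9 and Mtmr12, which encode inactive partners, came next at 20.5 ± 2.40 and 18.4 ± 1.75 TPM (SD, n = 3 each) with overlapping ranges. Mtmr1, a close relative of Mtm1, was 11.5 ± 0.61 TPM (SD, n = 3). Mtm1, the gene mutated in X-linked myotubular myopathy, was 10.2 ± 0.99 TPM (SD, n = 3). Mtmr4, which has a FYVE domain and acts on endosomes, was 8.21 ± 1.54 TPM (SD, n = 3), and its range overlapped that of Mtm1. Mtmr2, the gene mutated in a form of Charcot-Marie-Tooth neuropathy, was 6.41 ± 0.40 TPM (SD, n = 3). Mtmr10, an inactive member, was lowest at 1.09 ± 0.15 TPM (SD, n = 3), with 97.0% of the genes tested above it. Of the 9 neighbouring pairs in this order, 7 had ranges apart in WT and all 9 in the libraries labelled LRP5-KO.

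**Figure D1:**
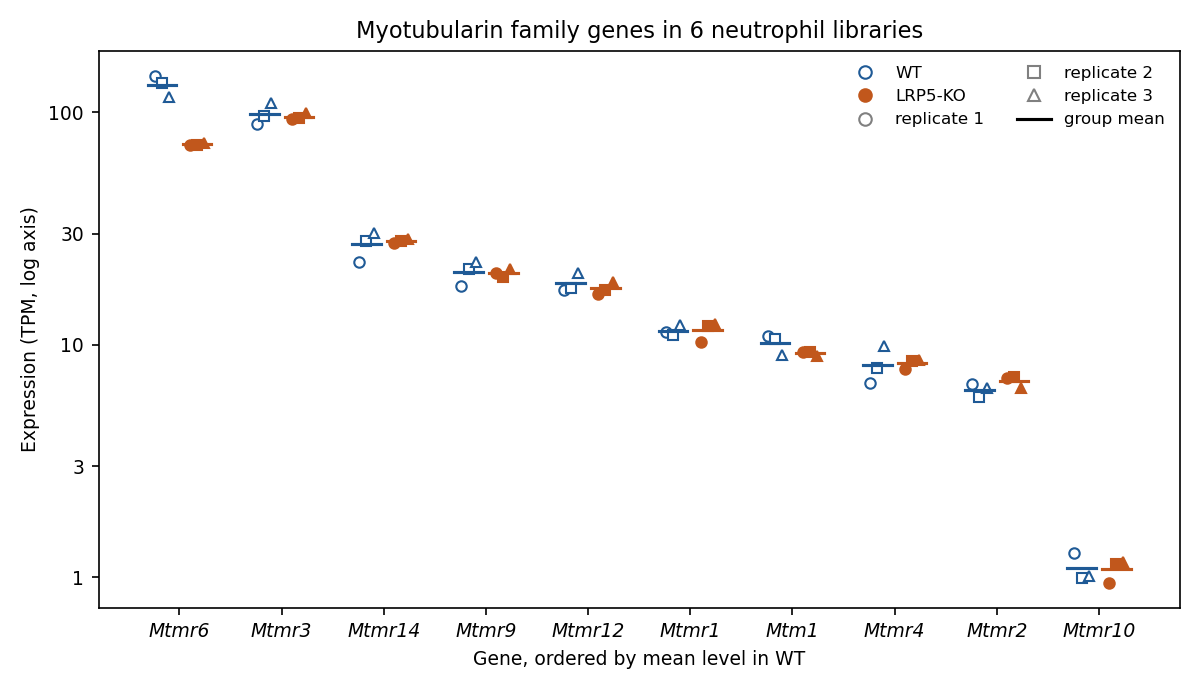
Expression of the 10 members in TPM on a log axis, for each WT (open) and LRP5-KO (filled) library, with symbols for the replicate and lines for group means. Mtmr6 is the 1 gene whose groups stand apart, at 116.7 to 142.9 TPM in WT and 72.2 to 73.3 TPM in the libraries labelled LRP5-KO.

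Mtmr6, the member that led to the choice of this family, was 142.9, 133.6 and 116.7 TPM in WT replicates 1 to 3 and 72.2, 72.3 and 73.3 TPM in the libraries labelled LRP5-KO. The lowest WT library was therefore well above the highest of the others, and the libraries labelled LRP5-KO lay within a narrow band. Their mean of 72.6 ± 0.60 TPM (SD, n = 3) was 55.4% of the WT mean, a log2 fold change of −0.84 (SE 0.085) on the scale of log2(TPM + 1). Against WT replicate 3 alone, the WT library whose share of ribosomal RNA was nearest to theirs, the log2 fold change was −0.68, and without that library it was −0.92. After removal of each library's dependence on GC content and transcript length it was −0.75. In bulk RNA, fewer cells that express a gene and less of its RNA per cell cannot be told apart. The immature neutrophil marker list (7 of 7 genes above the filter, none at 0) summed to 201.3 to 219.9 TPM in WT and 236.0 to 244.5 TPM in the libraries labelled LRP5-KO. Most of this sum was Fcnb, at 119.4 to 129.2 and 142.1 to 143.5 TPM. Elane, Ctsg and Mki67 were likewise higher without overlap, and Mpo, Prtn3 and Top2a overlapped. The mature list (7 of 7, none at 0) summed to 32752 to 37190 and 32066 to 33614 TPM, with overlap. Small lists for T and NK cells (11.3 to 13.2 and 15.5 to 17.1 TPM, 2 of 7 genes above the filter), megakaryocytes (2.998 to 4.36 and 4.74 to 5.58 TPM, 2 of 4) and eosinophils, basophils and mast cells (10.1 to 12.6 and 13.1 to 14.3 TPM, 3 of 6) were also higher in each library labelled LRP5-KO, with no gene at 0 throughout. Single genes made the gaps of the T and NK cell list and of the eosinophil, basophil and mast cell list. Cd3d was 9.33 to 10.6 TPM in WT and 13.4 to 14.5 TPM in the libraries labelled LRP5-KO, and the other T and NK cell genes overlapped. Of the megakaryocyte genes only Ppbp stood apart, but the gap of that list did not rest on it alone. Gp9, with overlap, was 0.90 to 1.87 TPM in WT and 1.80 to 2.13 TPM in the libraries labelled LRP5-KO. Prg2 was 0.85 to 1.16 and 2.34 to 3.13 TPM. Epx, at most 0.141 TPM, was also higher, Ms4a2 was lower, and Siglecf, Cpa3 and Mcpt8 overlapped. The part of these lists in the level of Mtmr6 was not tested.

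Mtmr3 was 88.9, 96 and 109.6 TPM in WT replicates 1 to 3 and 93.1, 94.1 and 99.4 TPM in the libraries labelled LRP5-KO. The values of the libraries labelled LRP5-KO all fell inside the WT range, with a log2 fold change of −0.03 (SE 0.089). Consequently the order of the most abundant pair differed between the groups. The ratio of Mtmr6 to Mtmr3 was 1.61, 1.39 and 1.06 in WT and 0.776, 0.769 and 0.738 in the libraries labelled LRP5-KO. Mtmr6 thus exceeded Mtmr3 in each WT library and in none of the others. The changed order restates the lower Mtmr6 by which the family was chosen and is not a further result.

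Mtmr9, the partner of Mtmr6, was 17.9, 21.1 and 22.6 TPM in WT replicates 1 to 3 and 20.3, 19.5 and 21.2 TPM in the libraries labelled LRP5-KO. The groups overlapped, with a log2 fold change of −0.01 (SE 0.097). Hence the ratio of Mtmr6 to Mtmr9 was 7.98, 6.33 and 5.16 in WT and 3.56, 3.71 and 3.46 in the libraries labelled LRP5-KO, without overlap. This gap restates the lower Mtmr6 by which the family was chosen and is not a further result. Mtmr12, which encodes the inactive adaptor of myotubularin and MTMR2, was 17.2, 17.5 and 20.4 TPM in WT and 16.6, 17.2 and 18.7 TPM in the libraries labelled LRP5-KO (log2 fold change −0.07, SE 0.090). Mtmr10 was between 0.95 and 1.27 TPM in all 6 libraries (log2 fold change −0.01, SE 0.093), close to the filter, where this scale understates changes. The summed level of the 3 inactive members was 36.4 to 44.0 TPM in WT and 37.8 to 41.0 TPM in the libraries labelled LRP5-KO, with overlap.

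Among the remaining active members, Mtmr14 was 22.7, 28.0 and 30.3 TPM in WT and 27.4, 28.0 and 28.5 TPM in the libraries labelled LRP5-KO, with a log2 fold change of 0.06 (SE 0.11). Mtm1 was 10.8, 10.6 and 9.02 TPM in WT and 9.34, 9.27 and 8.93 TPM in the libraries labelled LRP5-KO. WT replicate 3 lay with the latter, and the log2 fold change of −0.13 (SE 0.088) for Mtm1 became 0.02 against WT replicate 3 alone and 0.12 after removal of GC and length trends. Mtmr2 was 6.76, 5.97 and 6.49 TPM in WT and 7.17, 7.25 and 6.48 TPM in the libraries labelled LRP5-KO, with the largest positive log2 fold change of the members, 0.11 (SE 0.082). Mtmr4 and Mtmr1 differed by 0.03 (SE 0.12) and −6.0e-05 (SE 0.090) on this scale, and their groups overlapped. Thus each of the 9 members other than Mtmr6 had overlapping groups and a mean in the libraries labelled LRP5-KO of 0.904 to 1.09 times the WT mean. Against WT replicate 3 alone, Mtmr3, Mtmr4, Mtmr9, Mtmr12 and Mtmr14 had log2 fold changes of −0.20, −0.22, −0.15, −0.21 and −0.11. Each moved by more than the spread between replicates. In that fit Mtmr1, Mtmr2 and Mtmr10 were −0.08, 0.09 and 0.05.

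**Figure D2:**
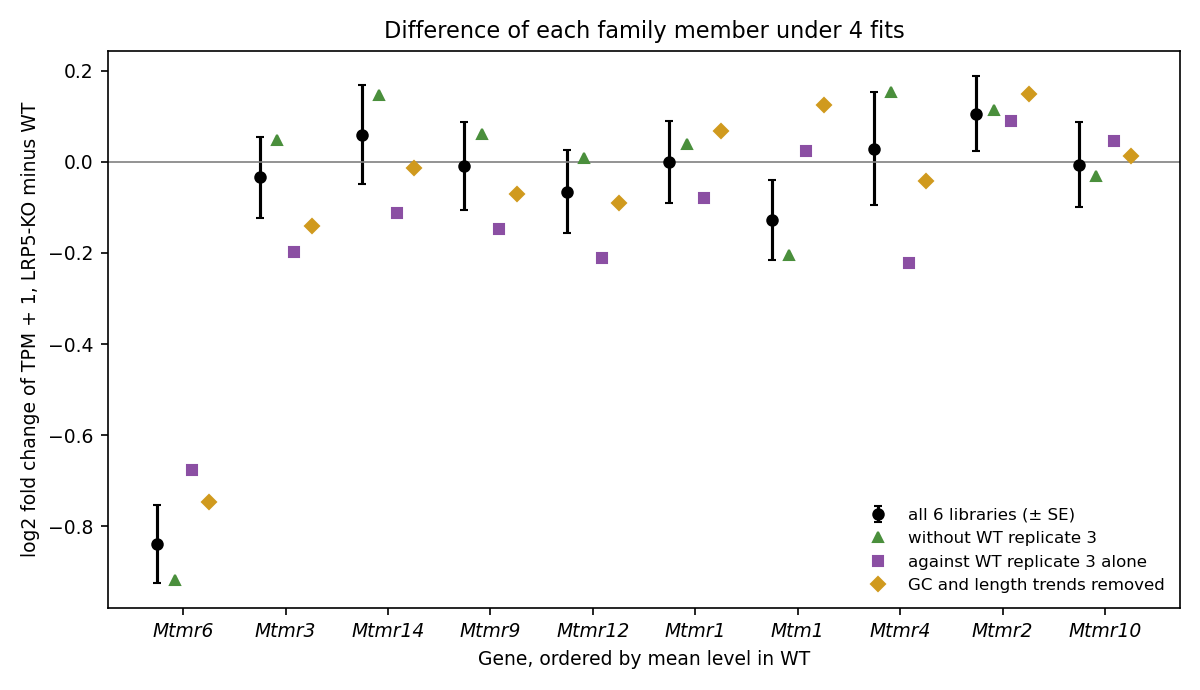
Log2 fold change of TPM + 1, LRP5-KO minus WT, of each member with all 6 libraries (black, bars are SE), without WT replicate 3, against WT replicate 3 alone and after removal of GC and length trends. Mtmr6 lies between −0.92 and −0.68 in these fits, and those of the other members lie between −0.22 and 0.15.

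When set against all genes, 1 of the 10 members had an adjusted p under 0.05 in limma (Benjamini-Hochberg over 9775 genes), where 0.532% of genes tested did (0.266% lower and 0.266% higher), and 1 of 10 had groups without overlap, where 29.7% did (12.3% lower and 17.4% higher). In both counts the member was Mtmr6, whose value in this contrast led to the choice of the family, so nothing is read from them. With 1 library left out, Mtmr6 was called without WT replicate 1 or WT replicate 3, where 18 and 1920 of the 9775 genes were. It was not called without WT replicate 2, where 3 genes were. Nor was it called without LRP5-KO replicate 1, 2 or 3, where 2, 15 and 2 genes were. Nothing is read from these calls either. The median log2 fold change of the members was −0.01, beside 0.04 for all genes tested, with 3 members above 0 and 7 below.

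The sum of the 10 members was 326.6, 332.6 and 338.1 TPM in WT and 265.1, 269.4 and 278.5 TPM in the libraries labelled LRP5-KO. Without Mtmr6 it was 183.7 to 221.5 and 192.9 to 205.1 TPM, with overlap, so the gap in the sum lay in Mtmr6. Mtmr6 made up 43.8%, 40.2% and 34.5% of the family sum in WT and 27.2%, 26.9% and 26.3% in the libraries labelled LRP5-KO. For the 7 genes with both catalytic codons the summed level was 290.2 to 294.1 TPM in WT and 227.3 to 237.4 TPM in the libraries labelled LRP5-KO. Relative to it, the inactive members amounted to 12.5% to 14.96% in WT and 16.3% to 17.3% in the libraries labelled LRP5-KO. The summed level of the inactive members overlapped between the groups. The family sum, the Mtmr6 share, the active sum and this ratio all include Mtmr6, whose value led to the choice of the family. No shift between inactive and active members is therefore read from them.

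**Figure D3:**
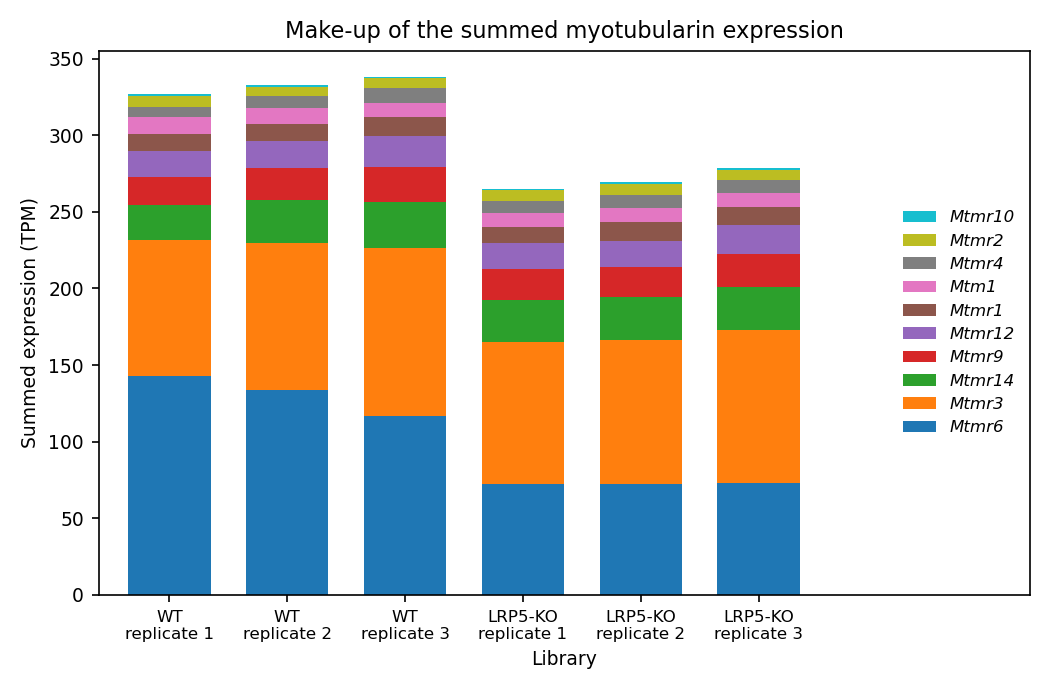
Stacked TPM of the 10 members in each library. The sum is 326.6 to 338.1 TPM in WT and 265.1 to 278.5 TPM in the libraries labelled LRP5-KO, and Mtmr6 makes up 34.5% to 43.8% of it in WT and 26.3% to 27.2% in the others.

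Within WT, members also differed between libraries. They are grouped here at a GC content of 48%, a cut that was not planned beforehand, so nothing is read from the split. Genes tested with a known GC content had a median of 49.98%. Mtmr3, Mtmr4, Mtmr9, Mtmr12 and Mtmr14, whose transcripts have a GC content of 48.4% to 53.7%, were higher in WT replicate 3 than in the mean of WT replicates 1 and 2 by 0.21 to 0.38 on the log2(TPM + 1) scale. For Mtm1, Mtmr1, Mtmr2, Mtmr6 and Mtmr10, with a GC content of 38.3% to 46.0%, this difference was −0.24 to 0.12, and Mtmr6 (43.3% GC) had the lowest value of the members. The coefficient of variation was larger among WT than among LRP5-KO libraries for 9 of the 10 members, Mtmr1 being the exception, and reached 18.8% for Mtmr4 in WT. As given above, the Mtmr6 difference was −0.75 once GC and length trends were removed.

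Among further genes of the family, Sbf1 alone passed the filter. Sbf1, which encodes an inactive partner of active members, was 17.1, 19.4 and 27.2 TPM in WT and 23.1, 23.4 and 24.6 TPM in the libraries labelled LRP5-KO, a log2 fold change of 0.18 (SE 0.16, limma adjusted p = 0.509). The difference in Sbf1 was −0.19 against WT replicate 3 alone, and without that library it was 0.37 (limma adjusted p = 0.0275). Sbf2, mutated in another form of Charcot-Marie-Tooth neuropathy, was at most 0.327 TPM and Mtmr11 at most 0.0331 TPM in any library, Mtmr7 was listed at 0 throughout, and Mtmr8 was not analysed here.

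To place the family among the genes that make and read its substrates, 7 lists of 52 genes were examined, of which 44 were tested. None had an adjusted p under 0.05 in limma, where 0.532% of all genes did, and 10 had an unadjusted p under 0.05, where 23.5% did. Groups did not overlap for 8 genes with higher and 5 with lower levels in the libraries labelled LRP5-KO, where 17.4% and 12.3% of all genes did so. Without WT replicate 3, 9 of the 44 were called (Inpp4a, Mcoln1, Sbf1, Tpcn1, Tpcn2 and Zfyve26 higher and Pik3c2a, Plekhf2 and Snx4 lower), where 19.6% of all genes were, and after removal of GC and length trends 2 were (Plekhf2 and Tpcn1), where 4.85% of all genes were.

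Kinases that make PI3P, with their subunits and regulators, were represented by 9 tested genes, none called. Pik3r4, the regulatory subunit of the class III kinase VPS34, was 5.17 ± 0.37 TPM in WT and 6.13 ± 0.31 TPM in the libraries labelled LRP5-KO (SD, n = 3 each), differing by 0.21 in log2 (limma adjusted p = 0.189). Rubcn, a negative regulator of this kinase, and Pik3c2b, a class II kinase, had log2 fold changes of 0.23 and 0.17 (limma adjusted p = 0.335 and 0.249). Pik3c3, which encodes VPS34 itself, was 15.9 to 16.6 TPM in WT and 14.8 to 16.3 TPM in the libraries labelled LRP5-KO. Inpp4a, a phosphatase that yields PI3P from phosphatidylinositol 3,4-bisphosphate, was 31.1, 33.3 and 37.3 TPM in WT and 49.6, 45.9 and 40.4 TPM in the libraries labelled LRP5-KO, without overlap (log2 fold change 0.41, limma adjusted p = 0.104). Its relative Inpp4b lay near 1 TPM, where the groups differed by 0.12 in log2 (limma adjusted p = 0.515).

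The complex that makes and turns over phosphatidylinositol 3,5-bisphosphate consists of the kinase Pikfyve, the scaffold Vac14 and the phosphatase Fig4. Fig4 was 14.1, 13.5 and 14.2 TPM in WT and 11.2, 12.1 and 12.6 TPM in the libraries labelled LRP5-KO, differing by −0.20 in log2 (limma adjusted p = 0.175). Pikfyve and Vac14 overlapped between groups, with log2 fold changes of −0.13 and 0.04 (limma adjusted p = 0.376 and 0.806). Channels of endosomes and lysosomes that this lipid opens all had positive differences. Mcoln1 was 5.21, 6.73 and 8.80 TPM in WT and 9.02, 9.90 and 10.7 TPM in the libraries labelled LRP5-KO, a log2 fold change of 0.48 (SE 0.16, limma adjusted p = 0.154), and of 0.65 (limma adjusted p = 0.0202) without WT replicate 3. Tpcn1 and Tpcn2 had log2 fold changes of 0.37 and 0.42 (limma adjusted p = 0.123 and 0.161), and without that library 0.48 and 0.54 (limma adjusted p = 0.0129 and 0.0444). Against WT replicate 3 alone, Mcoln1, Tpcn1 and Tpcn2 differed by less, at 0.15, 0.16 and 0.19.

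Of 24 tested genes for PI3P-binding proteins, 12 had a positive and 12 a negative log2 fold change and none was called. Zfyve26, a FYVE protein, was 13.5, 13.5 and 15.9 TPM in WT and 21.5, 19.4 and 19.7 TPM in the libraries labelled LRP5-KO, without overlap (log2 fold change 0.47, SE 0.091, limma adjusted p = 0.0675). Plekhf2, which encodes an endosomal protein with PH and FYVE domains, and Snx4, a sorting nexin, had log2 fold changes of −0.34 each (limma adjusted p = 0.0907 and 0.137), also without overlap. Without WT replicate 3, the log2 fold changes of Inpp4a, Zfyve26, Plekhf2 and Snx4 were 0.47, 0.55, −0.40 and −0.42 (limma adjusted p = 0.0257, 0.0117, 0.0144 and 0.0272). Against WT replicate 3 alone these 4 were smaller, at 0.27, 0.32, −0.22 and −0.17. Ncf4, the PI3P-binding subunit of the NADPH oxidase and the most abundant gene of this list, was 503.8 to 561.9 TPM in WT and 518.9 to 556.0 TPM in the libraries labelled LRP5-KO. Ncf4, Pik3c3, Pik3c2a and Kcnn4 were named after their values were seen. Dnm2 and Bin1, whose products act with myotubularin in membrane remodelling, had log2 fold changes of 0.07 and 0.06 (limma adjusted p = 0.623 and 0.682). Kcnn4, the potassium channel inhibited by MTMR6, was at most 0.381 TPM in any library.

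**Figure D4:**
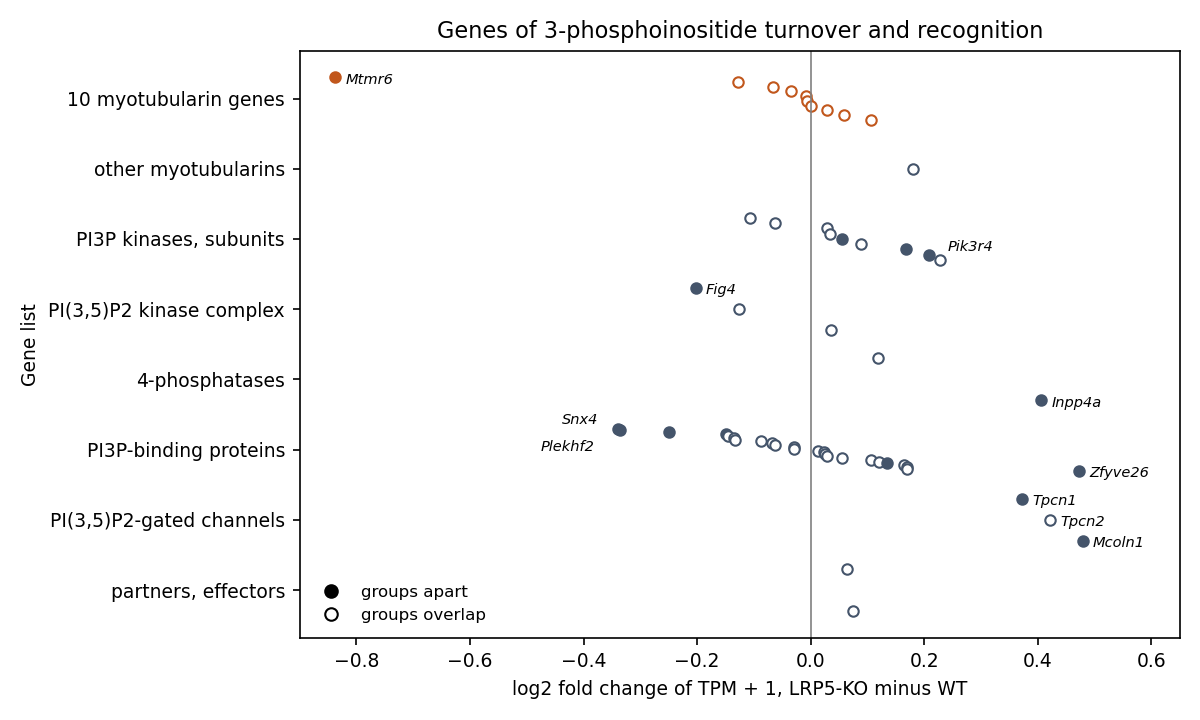
Log2 fold change of TPM + 1, LRP5-KO minus WT, of the 10 members and of the 44 tested genes of 7 related lists, filled where the groups do not overlap. Mtmr6 lies at −0.84, and the related genes lie between −0.34 and 0.48.

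Finally, the genes whose course over the 6 libraries was most like that of Mtmr6 were sought among all genes tested, by the root mean square difference of log2(TPM + 1) values centred on each gene's mean. Il13ra1, a receptor chain for interleukin 13, was closest (0.061), at 64.3, 60.1 and 47.7 TPM in WT and 32.5, 33.5 and 33.9 TPM in the libraries labelled LRP5-KO. Lyz2, the lysozyme gene that carries the Cre insertion, was second (0.070), at 26791, 26300 and 24797 TPM in WT and 14027, 13989 and 13360 TPM in the libraries labelled LRP5-KO. Arhgef3, Gm1966 and Kbtbd7, which encodes a BTB and Kelch protein, followed at 0.097, 0.11 and 0.12. In all of them, as in Mtmr6, every WT library was above every library labelled LRP5-KO, which the measure of likeness selects for.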

How the data were processed

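The authors aligned reads to mm9, their processing notes name DESeq2, and they deposited TPM per gene, scaled to a fixed total per library. The tool that made TPM is not given in the sources used here. The labels name a Percoll gradient and an mRNA kit, whereas the methods name a sort for CD11b and Ly6G and a stranded total RNA kit. A read summary deposited by the authors gives read counts per library, shares of reads in percent and a coverage ratio for each transcript end. TPM holds no counts, so no count model was used.

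The 9775 of 52636 genes that averaged 1 TPM or more were fitted on the scale log2(TPM + 1), using limma 3.58.1 (R 4.3.3) and its trended prior variance, 3 libraries against 3, and Benjamini-Hochberg adjustment at 0.05. The members and lists were chosen with earlier results of these data known. Genes named are all members, the other family genes, the 3 of smallest p and any called in each related list, the 5 most like Mtmr6, Lrp5 and Lyz2. GC content and length came from the longest GENCODE M1 protein-coding transcript (89.7% of genes tested), and their trends were removed with splines of 5 degrees of freedom. Coding sequences were aligned through their translations with MAFFT 7.526, and every printed base was checked against the NCBIM37 genome. Alternatives were another pseudocount (0.1), filter, scaling, shrinkage, the replicate number as a block, each library left out, WT replicate 3 alone and removal of the trends.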

Additional observations from a re-analysis of the deposited data

Results flagged for a closer look

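Reads in introns, in the deposited read summary and outside the TPM comparison, made up 10.9% ± 0.31 (SD, n = 3) of reads in the libraries labelled LRP5-KO and 8.46% ± 0.62 (SD, n = 3) in WT. Every library labelled LRP5-KO, at 10.6% to 11.2%, was above every WT library, at 7.78% to 9.0%, which is why the share is listed. The share of reads in coding and UTR sequence also stood apart, at 83.84% to 87.03% in WT and 81.85% to 82.41% in the libraries labelled LRP5-KO. The part of either share in the level of Mtmr6 was not tested.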

How the results depend on the processing

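Mtmr6 kept a negative log2 fold change in all 16 alternatives, from −0.92 to −0.68, the latter against WT replicate 3 alone and further from −0.84 than the spread between replicates. With a library left out it was −0.92 to −0.77. The count of members called was 1 (Mtmr6) in 9 alternatives and 0 without a filter, under the replicate block and against WT replicate 3 alone, and 0 to 1 with a library left out. Genes called numbered 52 and became 3 without a filter, 29 at a mean of at least 5 TPM, 4 under the replicate block, 6 against WT replicate 3 alone and 425 with GC and length trends removed (157 higher and 268 lower, against 26 each), and 2 to 1920 with a library left out (18, 3 and 1920 without WT replicates 1, 2 and 3, and 2, 15 and 2 without LRP5-KO replicates 1, 2 and 3). Without WT replicate 3, 1180 were higher and 740 lower. The related lists had 0 calls, 2 with the trends removed (Plekhf2 and Tpcn1, where 4.85% of all genes were called) and 0 to 9 with a library left out. Small differences changed sign: against WT replicate 3 alone those of Sbf1, Rubcn and Dnm2 were −0.19, −0.0070 and −0.076, with the trends removed those of Sbf1, Pik3c2b, Vac14, Bin1 and Dnm2 were −0.0032, −0.013, −0.073, −0.051 and −0.053, with quantile normalization those of Vac14 and Bin1 were −0.037 and −0.029, and Vac14 was −0.0012 with median-ratio scaling and −0.0094 (without LRP5-KO replicate 3) to 0.074 with a library left out. Members changed sign too. Against WT replicate 3 alone, Mtmr4 and Mtmr14 became −0.22 and −0.11, and Mtm1 and Mtmr10 became 0.02 and 0.05. With the trends removed, Mtm1, Mtmr1, Mtmr4, Mtmr10 and Mtmr14 became 0.12, 0.067, −0.042, 0.012 and −0.013. Without WT replicate 3, Mtmr1, Mtmr3, Mtmr9 and Mtmr12 became 0.039, 0.047, 0.060 and 0.0077. Without WT replicate 1, Mtmr4, Mtmr10 and Mtmr14 became −0.084, 0.054 and −0.057. Mtmr9 became 0.013 without WT replicate 2 and 0.018 without LRP5-KO replicate 2. Without LRP5-KO replicate 1, Mtmr1 and Mtmr10 became 0.074 and 0.041. Median-ratio scaling and quantile normalization gave −0.011 and −0.019 for Mtmr4. The cause was not tested. The same replicate numbers gave correlations of deviations across genes of 0.23, −0.0075 and 0.13 for replicates 1 to 3. Replicates 1 and 3 correlated best with their own number in the other group, and replicate 2 did not. The deviations were taken from the mean of only 3 libraries per group. These correlations therefore cannot decide whether the numbers pair the libraries.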
